A study of Mus musculus with 2 samples.

Results

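Plcb1, Glis3, Cacna1d, Kctd19, Nrg1 and Vcan are 6 of the 54838 genes in the deposited gene list. They were chosen by their KO to WT difference, since their transcripts were fewer in monocytes of the Dpf2 knockout (KO) library than in monocytes of the wild-type (WT) library, so that difference is only described here. The question asked of them was whether they mark 1 monocyte state, and what else the cells of that state express. The genes were taken by symbol and followed as UMIs (unique molecular identifiers, 1 per captured transcript) in monocytes and in the other cell types. Monocytes were gated as cells with at least 5 Lyz2 UMIs and at most 1 UMI of C1qa, C1qb and C1qc together. Lyz2 codes for the lysozyme of myeloid cells, and the C1q genes code for complement subunits made by tissue macrophages. The gate held 405 of 8199 kept cells in KO (4.94%) and 744 of 10230 in WT (7.27%).

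The series holds 2 single-cell RNA libraries of the intestine, 1 labelled DPF2 KO mice and 1 labelled WT mice, and both came from animals that had received 10 Gy of X-rays. Live immune cells were sorted by FACS from digested intestine with a viability dye and gates on GFP or tdTomato. The time after irradiation, the number and sex of the mice, the deleted part of Dpf2 and the promoter of any Cre were not stated in the labels used here. With 1 library per genotype there is no replicate check and no test, so each difference between KO and WT is one between 2 libraries. Intervals are exact 95% intervals (Poisson for levels and, given the summed count, binomial for ratios of levels, Clopper-Pearson for shares) and cover counting error only. A level is the UMIs of a gene summed over a set of cells, per 1000000 UMIs of those cells.

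The libraries held 49590755 UMIs in 8794 barcodes for KO and 64786549 in 10958 for WT, with 24 barcodes found in both. Gated cells had a median of 8510 UMIs and 2820 genes in KO, and 5852 UMIs and 2198 genes in WT. They carried the monocyte genes Lyz2 (1537 per 1000000 in KO, 2549 in WT), Itgam (262 and 225), Csf1r (223 and 150), Ccr2 (171 and 133) and Ly6c2 (125 and 255). Of the gated cells, 344 in KO and 659 in WT lay in the cluster of all cells that carried monocyte markers, and 48 in KO and 73 in WT lay in dendritic cell clusters. Summed markers of other types were 197 in KO and 215 in WT for 10 dendritic markers, 1101 and 705 for 11 neutrophil markers, 1638 and 1378 for 16 macrophage markers (Folr2 at 0 in KO), 70.2 and 150 for 8 T cell markers, 30.6 and 60.5 for 7 fibroblast markers, and 172 and 209 for 6 endothelial markers. Their part in the results was not tested, except where a value without such cells is given. Dpf2, which codes for a subunit of BAF chromatin remodelling complexes, stood at 20.6 (80 UMIs) in KO and 40.6 (202 UMIs) in WT gated cells, a ratio of 0.506 (0.386 to 0.659). A 3' tag outside the deleted part checks nothing about the knockout.

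The 6 genes have unlike functions. Plcb1 codes for phospholipase C beta 1, which Gq-coupled receptors switch on to split the membrane lipid PIP2 into IP3 and diacylglycerol. Cacna1d codes for the pore subunit of an L-type voltage-gated calcium channel known from neurons, endocrine cells and the sinoatrial node. Glis3 codes for a Krüppel-like zinc finger transcription factor needed in pancreatic beta cells and the thyroid. Kctd19 codes for a KCTD-family protein required for meiosis in the mouse testis. Nrg1 codes for neuregulin 1, a ligand of ErbB3 and ErbB4 receptors. Vcan codes for versican, a hyaluronan-binding proteoglycan of the extracellular matrix whose transcript is a well-known marker of classical monocytes in human blood. Classical monocytes leave the blood for injured tissue and turn into macrophage-like or dendritic-like cells there, with loss of Ly6c2 and gain of MHC class II genes in the mouse.

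On build GRCm38, Plcb1 (ENSMUSG00000051177) spans chr2:134786067-135475258 on the plus strand, and the other genes lie on the minus strand. Glis3 (ENSMUSG00000052942) spans chr19:28258851-28680077, Cacna1d (ENSMUSG00000015968) chr14:30039939-30491455, Kctd19 (ENSMUSG00000051648) chr8:105382807-105413502, Nrg1 (ENSMUSG00000062991) chr8:31814551-32884029 and Vcan (ENSMUSG00000021614) chr13:89655312-89742509. Plcb1, Glis3, Cacna1d and Nrg1 are long genes, with spans of 689, 421, 452 and 1069 kb, against 30.7 kb for Kctd19 and 87.2 kb for Vcan. With the 6 genes left out, 5 of the 368 genes over 200 kb compared between the gated cells of both libraries (1.36%) were at least 2-fold lower in KO, and 57 of 6646 shorter genes (0.858%) were. Genes that overlap on the same strand held 40 UMIs in WT gated cells for Cacna1d and 0 for the other 5.

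The start regions of Plcb1, Vcan and Glis3 are shown because Vcan was found more often in cells with Plcb1 than in cells without it, while the shares of Glis3 in cells with and without Plcb1 had overlapping intervals, as set out below. Each run is 250 bases before and 50 after an annotated start, 5′ to 3′ on the gene's strand, from RefSeq on GRCm38.p6. Capitals mark the SP/KLF motif GGGCGG on either strand (CCGCCC on the other).
Plcb1, chr2:134785914-134786213, plus strand: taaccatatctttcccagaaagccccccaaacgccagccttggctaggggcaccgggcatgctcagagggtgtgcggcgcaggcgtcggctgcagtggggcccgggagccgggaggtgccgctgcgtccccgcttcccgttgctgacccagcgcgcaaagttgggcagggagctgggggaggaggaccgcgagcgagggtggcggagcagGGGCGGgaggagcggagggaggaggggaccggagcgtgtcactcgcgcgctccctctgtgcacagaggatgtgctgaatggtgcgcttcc
Vcan, chr13:89742463-89742762, minus strand: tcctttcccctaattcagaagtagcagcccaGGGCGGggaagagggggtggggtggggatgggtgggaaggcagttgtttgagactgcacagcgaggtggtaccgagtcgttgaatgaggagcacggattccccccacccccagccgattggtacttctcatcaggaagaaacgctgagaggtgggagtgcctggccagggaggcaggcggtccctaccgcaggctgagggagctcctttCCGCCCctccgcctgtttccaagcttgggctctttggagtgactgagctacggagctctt
Glis3, chr19:28680028-28680327, minus strand: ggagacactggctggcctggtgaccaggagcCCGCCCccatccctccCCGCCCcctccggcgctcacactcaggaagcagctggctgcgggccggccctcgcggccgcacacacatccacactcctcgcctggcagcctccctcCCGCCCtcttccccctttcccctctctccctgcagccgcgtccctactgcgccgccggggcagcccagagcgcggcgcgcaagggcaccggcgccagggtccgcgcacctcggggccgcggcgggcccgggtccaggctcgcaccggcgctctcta
Of the 6 genes, 4 had a promoter entry, with 5 starts in all. The motif matched 1 time in the Plcb1 run, 2 times in the Vcan run and 3 times in the Glis3 run. Of the Cacna1d starts, 1 held no match and the other held 6, some of them overlapping. At least 1 match is found in 35.7% of all 32851 promoters of this length. Searched on both strands, the myeloid motifs C/EBP (TTNNGNAA, in 40.7% of all promoters), PU.1 (GAGGAA, 28.3%) and AP-1 (TGANTCA, 7.81%) had no match in any of the 5 runs, which says only that these letters are not in these windows. The runs were rich in G and C, with 69.7% for Plcb1, 61.0% for Vcan, 76.3% for Glis3 and 87.3% for 1 Cacna1d start, and the other Cacna1d start had 40.3%.

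In gated monocytes all 6 genes were lower in KO. Plcb1 stood at 314 (297 to 332) per 1000000 in KO and 1586 (1551 to 1622) in WT, a ratio of 0.198 (0.186 to 0.210). A KO cell held 3.02 Plcb1 UMIs on average and at most 45, and a WT cell 10.6 on average and at most 146. Cacna1d, the channel subunit, stood at 78.7 (70.1 to 88.0) in KO and 478 (459 to 498) in WT, a ratio of 0.164 (0.146 to 0.185). These ratios were the lowest of the group, and Cacna1d had the lowest log2 ratio of all genes compared.

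Glis3, the transcription factor, stood at 37.8 (31.9 to 44.4) in KO and 183 (171 to 195) in WT, a ratio of 0.207 (0.172 to 0.246). Kctd19 stood at 18.8 (14.7 to 23.6) in KO and 84.7 (76.8 to 93.1) in WT, a ratio of 0.222 (0.170 to 0.285). The neuregulin gene Nrg1 stood at 14.9 (11.3 to 19.3) in KO and 57.1 (50.7 to 64.2) in WT, a ratio of 0.261 (0.193 to 0.347). These 3 genes rest on few transcripts, 147, 73 and 58 UMIs in KO and 909, 421 and 284 in WT. Versican (Vcan) stood apart with 84.8 (75.9 to 94.5) in KO and 209 (196 to 222) in WT, a ratio of 0.407 (0.358 to 0.461), so that KO kept a larger share of it than of the other 5.

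Of 7020 genes with enough UMIs in gated cells, 0.969% lay 2-fold or more below WT in KO and 0.741% 2-fold or more above. Nothing is read from the 6 of 6 against that background, since the contrast chose the genes. Counted from the lowest log2 ratio, Cacna1d ranked 1, Plcb1 3, Glis3 5, Kctd19 7, Nrg1 22 and Vcan 38. The genes at ranks 2, 4 and 6 were not in the group. They were the unnamed model B230303A05Rik (31.1 in KO, 195 in WT), the interleukin 7 receptor gene Il7r (35.2 and 191) and the chemokine gene Cxcl9 (22.6 and 102).

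The share of gated cells with at least 1 UMI was also lower in KO for each gene. Plcb1 was found in 46.4% of KO and 76.1% of WT cells, Cacna1d in 20.5% and 55.2%, Vcan in 28.1% and 43.4%, Glis3 in 10.6% and 28.9%, Kctd19 in 12.6% and 28.1%, and Nrg1 in 5.68% and 14.0%. KO cells were deeper, so cells were also thinned to 2000 UMIs each, which left out 1 KO and 10 WT cells. Plcb1 was then found in 29.0% of 404 KO and 65.1% of 734 WT cells, Cacna1d in 9.41% and 38.3%, Vcan in 10.4% and 29.2%, Glis3 in 5.69% and 18.9%, Kctd19 in 2.97% and 13.1%, and Nrg1 in 2.97% and 7.22%. T cells, with median depths of 4421 UMIs in KO and 4097.5 in WT, give the share in a type that should hold little of these genes. Plcb1 was found in 1.16% of KO and 5.29% of WT T cells, Cacna1d in 1.46% and 3.004%, Vcan in 1.08% and 1.37%, Glis3 in 1.70% and 2.32%, Kctd19 in 0.231% and 0.565%, and Nrg1 in 0.308% and 0.654%. Monocytes stood well above that in both libraries.

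Most KO cells held 1 gene of the group or none, and a typical WT cell held 1 to 3. After thinning, no gene of the group was found in 213 of 404 KO cells (52.7%) and in 121 of 734 WT cells (16.5%). Exactly 1 was found in 145 KO and 202 WT cells, and 2 in 40 and 230. At least 3 genes of the group met in 6 KO cells (1.49%, 0.547 to 3.20) and in 181 WT cells (24.7%, 21.6 to 27.9). A single cell, of WT, held all 6.

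**Figure D1:**
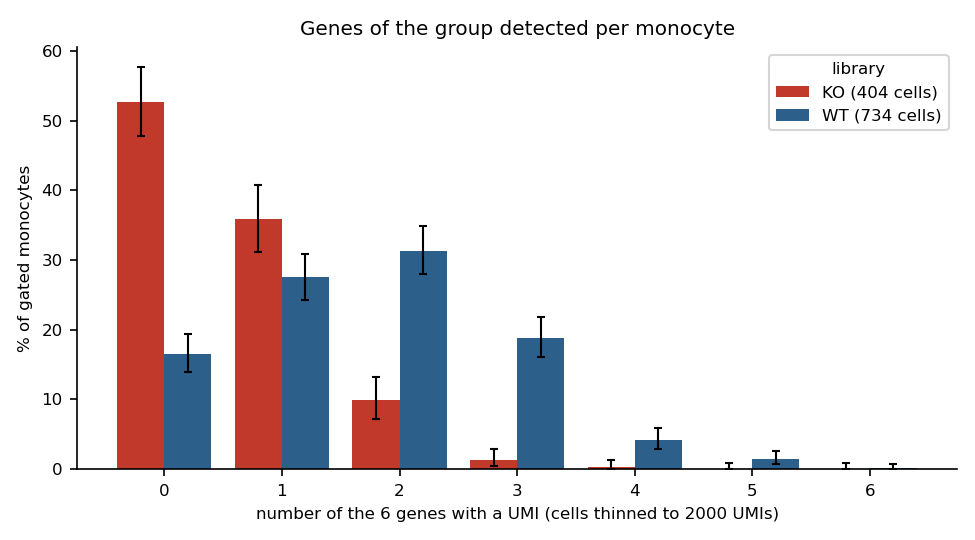
Share of gated monocytes (y axis, percent) by how many of the 6 genes had a UMI after thinning to 2000 UMIs per cell (x axis), with KO bars on the left and WT bars on the right and exact 95% intervals. KO cells peak at 0 genes with 52.7% of cells, and WT cells peak at 2 genes.

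Ratios were also computed without neutrophil-like and dendritic-like cells in the gate. Leaving out cells that carried 20 or more neutrophil or 2 or more dendritic marker UMIs kept 350 KO and 643 WT cells, and the ratios were 0.197 for Plcb1, 0.162 for Cacna1d, 0.222 for Glis3, 0.207 for Kctd19, 0.267 for Nrg1 and 0.394 for Vcan. Gated cells with Xist but no Y-linked UMI numbered 126 in KO and 134 in WT, and cells with Y-linked but no Xist UMI 127 and 295. The Plcb1 ratio was 0.247 in Xist-only cells and 0.193 in cells with Y-linked UMIs only, and all 6 genes were below 1 in both, from 0.111 (Glis3) to 0.516 (Vcan).

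KO gated cells had less of the classical monocyte gene Ly6c2, which was also lowest where Plcb1 and Vcan were lowest among WT subclusters 1, 2 and 3, described below. The list of 12 classical monocyte genes had a median log2 ratio of -0.28, KO over WT, against 0.05 over all genes. Of the 12, 3 (Ly6c2, Cd177 and Lyz2) were at least 1.5-fold lower in KO, against 3.8% of all 7020 genes, and none was that much higher. Ccr2 (171 in KO, 133 in WT) and F13a1 (240 and 187) lay above WT by less than 1.5-fold. Among cells with 2 or more UMIs of Ly6c2 and Chil3 together (82 in KO, 229 in WT), Plcb1 stood at 826 in KO and 2560 in WT, a ratio of 0.323 (0.294 to 0.353). Kctd19 stood at 41.9 and 86.6, a ratio of 0.484 (0.308 to 0.737). Both ratios were nearer to 1 than the 0.198 and 0.222 over all gated cells. The other ratios there were 0.450 for Vcan, 0.208 for Glis3, 0.192 for Cacna1d and 0.164 for Nrg1, against 0.407, 0.207, 0.164 and 0.261 over all gated cells, so that Glis3 hardly moved and Nrg1 moved away from 1. Among cells with 0 UMIs of both (264 and 333 cells), Plcb1 stood at 203 in KO and 896 in WT (ratio 0.227), and Kctd19 at 14.9 and 79.3 (ratio 0.188). Glis3 (32.9 in KO, 158 in WT), Cacna1d (118 and 615), Nrg1 (13.5 and 82.0) and Vcan (153 and 339) were also lower in KO among the Ly6c2 and Chil3 cells.

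Beyond the gate, the same cluster of monocytes held 499 KO and 805 WT cells with too few Lyz2 or too many C1q UMIs. There Plcb1 stood at 118 in KO and 403 in WT (ratio 0.294), Cacna1d at 83.1 and 310 (0.268), Glis3 at 30.9 and 213 (0.145), Kctd19 at 21.0 and 108 (0.194), Nrg1 at 31.2 and 115 (0.271) and Vcan at 19.3 and 55.9 (0.345). Plcb1 and Vcan were lower outside the gate than inside it in both libraries, while Glis3, Kctd19 and Nrg1 in WT were not. An unnamed cluster of shallow cells (251 in KO with a median of 1274 UMIs and 376 in WT with 1101.5) with 10.1% and 8.91% mitochondrial UMIs also held the genes. Plcb1 stood there at 167 in KO and 1109 in WT, Kctd19 at 11.6 and 169, and Lyz2 at 300 and 414.

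Outside monocytes the genes mostly differed in the classes that held them, but fibroblasts held all of them except Kctd19 (0 in KO, 4.65 in WT). Plcb1 was high in endothelial cells (1640 in 44 KO cells, 2316 in 110 WT cells) and fibroblasts (768 in 23 KO cells, 1060 in 269 WT cells), where the KO to WT ratios were 0.708 (0.640 to 0.783) and 0.724 (0.596 to 0.873), nearer to 1 than the 0.198 of monocytes. Vcan was found in the same stromal classes, at 89.9 in KO and 276 in WT endothelial cells and at 239 in KO and 137 in WT fibroblasts. In fibroblasts Vcan was thus higher in KO, with a ratio of 1.75 (1.20 to 2.49) that rests on 37 KO UMIs. Glis3 stood at 123 in KO and 215 in WT fibroblasts, at 120 and 104 in group 3 innate lymphoid cells (ratio 1.15, 0.871 to 1.54), and at 44.0 and 76.1 in dendritic cells (ratio 0.578, 0.502 to 0.665). Cacna1d stood at 168 in KO and 166 in WT fibroblasts, and at 67.8 and 110 in group 2 innate lymphoid cells. Nrg1 stood at 38.7 in KO and 90.3 in WT fibroblasts, and Kctd19 at 20.1 in KO and 53.3 in WT macrophages.

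Macrophages, the myeloid neighbours of monocytes, held hardly any Plcb1 or Vcan. Plcb1 stood at 1.68 (2 UMIs in 225 cells) in KO macrophages and 26.7 (10 UMIs in 102 cells) in WT macrophages, and Vcan at 1.68 in KO and 0 in WT, where a count of 0 allows up to 9.83. Cacna1d stood at 56.2 in KO and 48.0 in WT macrophages, a ratio of 1.17 (0.688 to 2.10), unlike the 0.164 of monocytes. The macrophage ratios of Nrg1 (0.945, 0.359 to 2.91) and Glis3 (0.525, 0.173 to 1.76) also had intervals that took in 1. Dendritic cells had Plcb1 at 3.21 in KO and 41.3 in WT, a ratio of 0.0777 (0.0490 to 0.118). Besides Glis3, given above, ratios there were 0.223 for Kctd19, 0.309 for Nrg1, 0.376 for Vcan and 0.400 for Cacna1d, each with an interval below 1. Neutrophils had ratios of 0.235 for Plcb1 (0.121 to 0.439) and 0.462 for Glis3 (0.262 to 0.816). The intervals of the other genes in neutrophils took in 1. In T, B and plasma cells the Plcb1 levels of each library lay close together, at 2.82 in KO and 13.2 in WT T cells, 3.35 and 13.7 in B cells, and 3.83 and 14.3 in plasma cells. Free RNA in the droplets was not measured, so neither expression nor a difference between the libraries is read from these 3 lymphoid classes. In natural killer cells Glis3 stood at 32.9 (41 UMIs) in KO and 8.42 (12 UMIs) in WT, a ratio of 3.91 (2.02 to 8.18) that runs against the 0.207 of monocytes. The shares of natural killer cells with Glis3, 5.46% in KO (2.94 to 9.16) and 2.36% in WT (0.953 to 4.80), had overlapping intervals. The difference in ratio between natural killer cells and monocytes was not tested.

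**Figure D2:**
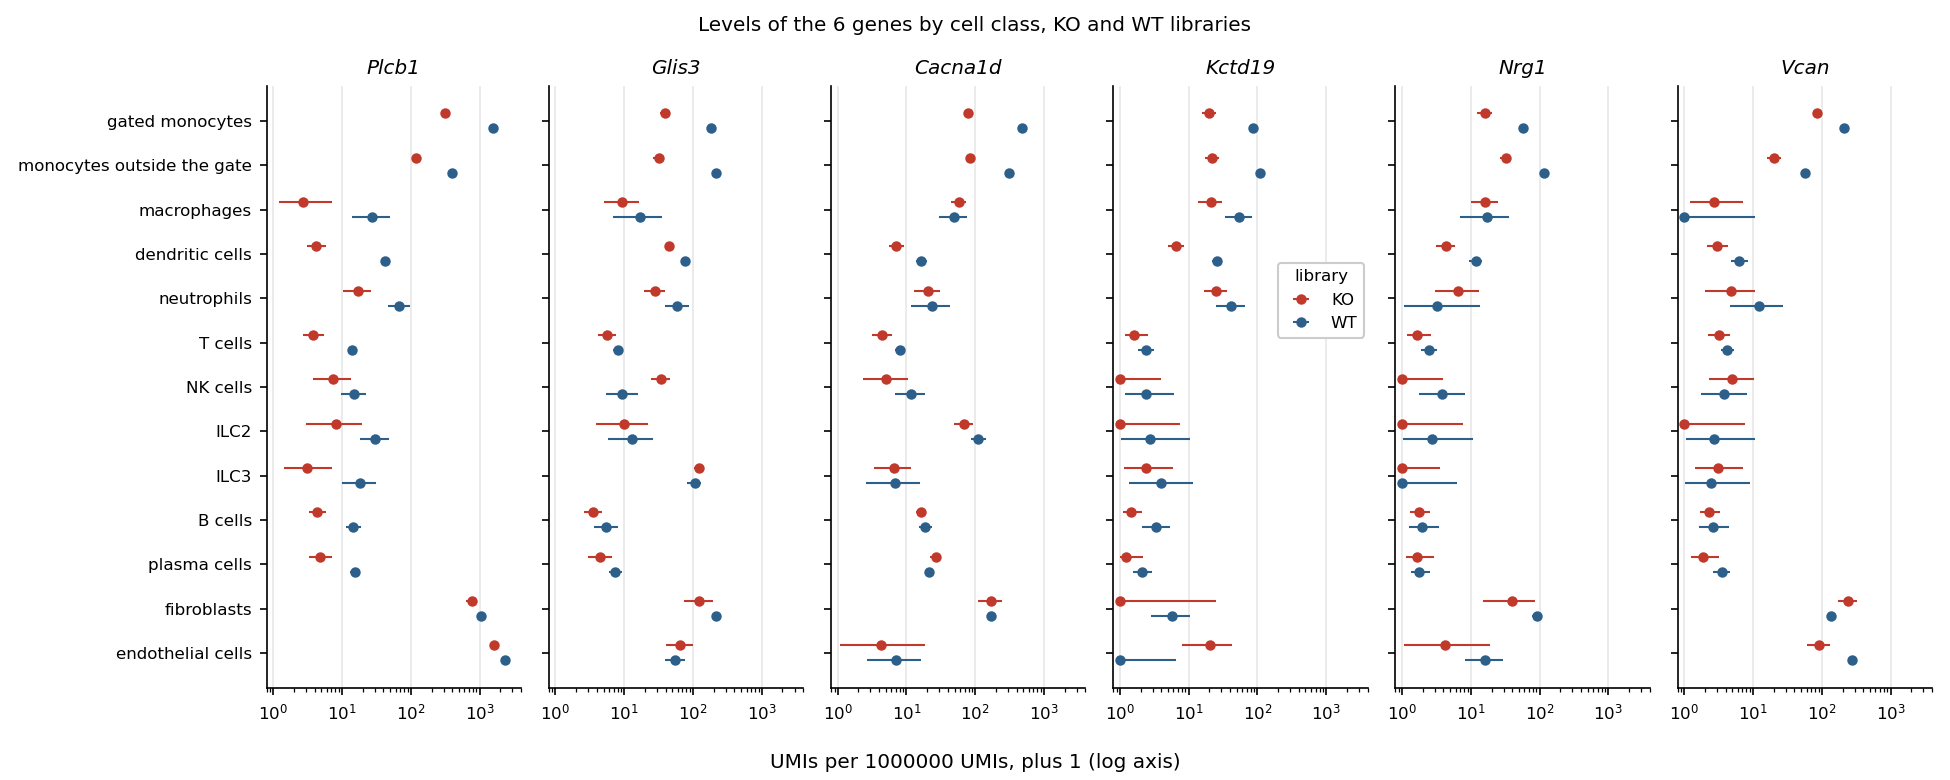
Levels of the 6 genes (x axes, UMIs per 1000000 plus 1, log scale) in each set of cells (rows), with KO in red above WT in blue and exact 95% Poisson intervals. Monocytes carry all 6 genes with KO below WT. Plcb1 and Vcan are also high in fibroblasts and endothelial cells, and Glis3 in group 3 innate lymphoid cells. Fibroblasts hold Glis3, Cacna1d and Nrg1 as well.

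To see where in the monocytes the genes lie, gated cells of both libraries were clustered with the 6 genes left out. Subcluster 0 was made of 281 KO cells and no WT cell. Subclusters 1, 2 and 3 held 254, 205 and 176 WT cells and 1, 4 and 5 KO cells. A cluster made of 1 library may be that library and not a cell state, so levels are compared between the WT subclusters, and between KO and WT only where both are present. Subcluster 4 (79 KO and 74 WT cells) was led by Ccl17, Rnf180, Mmp12 and Ccl22, of which Ccl17 and Ccl22 are dendritic chemokine genes, and subcluster 5 (22 and 19) by the interferon-induced genes Ifit2, Ifit1 and Usp18. Subcluster 1 was led by Plcb1 itself, then Igf2bp2, Dmkn, Cxcl3 and Vcan, subcluster 2 by Itga9, Cd38 and Inhba, and subcluster 3 by Fbxl5, Gpr141 and Ifi47. Although left out of the clustering, Plcb1, Vcan and Cacna1d were thus among the leading genes of subcluster 1, and Glis3 was among those of subcluster 2.

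Plcb1 was high in WT subclusters 1 and 3 and low in 2. It stood at 2984 in subcluster 1, 661 in subcluster 2, 2216 in subcluster 3, 353 in subcluster 4 and 653 in subcluster 5, so that subcluster 1 was 4.51 times subcluster 2 (4.18 to 4.87). Vcan had the same order over the first 3, with 393, 72.9 and 298, and subcluster 1 was 5.39 times subcluster 2 (4.29 to 6.83). Cacna1d followed more weakly, with 703, 427 and 677 and a ratio of 1.64 (1.48 to 1.83) between subclusters 1 and 2. Its levels in subclusters 1 and 3 differed by less than their counting error (ratio 1.04, 0.939 to 1.15).

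Glis3 had another order. Among WT subclusters 1 to 5 it was highest in subcluster 2, with 178 in subcluster 1, 280 in subcluster 2, 97.5 in subcluster 3 and 196 in subcluster 4 (subclusters 6 and 7 had fewer than 15 WT cells each), and subcluster 2 was 2.87 times subcluster 3 (2.26 to 3.67). The shares of cells lay closer together, with Glis3 in 46 of 252, 48 of 204, 28 of 171 and 12 of 73 thinned cells of WT subclusters 1 to 4. A WT cell held up to 39 Glis3 UMIs, and the intervals of levels do not cover such spread between cells. Nrg1 was highest in subcluster 3 (44.6, 68.7 and 99.7 over the first 3), with subcluster 3 at 2.23 times subcluster 1 (1.62 to 3.10). Kctd19 was nearly level (93.7, 88.2 and 111), and none of its 3 pairs of neighbours among subclusters 1, 2 and 3 differed beyond counting error. Subcluster 1 held 34.1% of WT gated cells but 59.3% of their Plcb1 UMIs and 59.4% of their Vcan UMIs, against 46.3% for Cacna1d, 34.9% for Kctd19, 30.7% for Glis3 and 24.6% for Nrg1. Among WT subclusters 1 to 5 the summed level was highest in subcluster 1, which was also the highest for 3 of the 6 genes.

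Most classical monocyte genes were also lowest in subcluster 2 of the first 3, in 11 of 12 cases, with Plac8 as the exception (2242, 3139 and 3594). Of 20 activated monocyte genes, 14 were highest in subcluster 2 and 5 were lowest there. The shares of all genes highest or lowest there were not counted, and listed genes could take part in the clustering, so nothing is read from these counts. Chil3, a chitinase-like protein gene, stood at 554, 166 and 580 in WT subclusters 1, 2 and 3, fibronectin (Fn1) at 557, 193 and 553, and Ly6c2 at 345, 166 and 460. Inhba, the activin A subunit gene, stood at 381, 896 and 258, and the MHC class II gene H2-Aa at 605, 4216 and 657. H2-Aa was as high in subcluster 4 (4414), where Glis3 stood at 196. Subcluster 2 lay apart from subclusters 1 and 3 in these 5 genes.

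Where KO and WT cells shared a subcluster, the genes were mostly lower in KO there too. In subcluster 4 Plcb1 stood at 97.3 in KO and 353 in WT (ratio 0.275, 0.217 to 0.346), Glis3 at 66.8 and 196 (0.340), Cacna1d at 29.5 and 124 (0.238), Kctd19 at 15.7 and 63.6 (0.247) and Vcan at 20.6 and 45.0 (0.459). Nrg1 had 1 UMI in KO there. In subcluster 5 Plcb1 stood at 102 in KO and 653 in WT (0.157) and Cacna1d at 13.3 and 224 (0.0596). Vcan was the exception, with 102 in KO and 89.5 in WT, a ratio of 1.14 whose interval (0.523 to 2.69) takes in 1, as does that of Nrg1 (0.355, 0.0888 to 1.30). KO subcluster 0, which has no WT cells to set beside it, had Plcb1 at 451, Vcan at 116, Cacna1d at 110, Glis3 at 27.0, Kctd19 at 21.8 and Nrg1 at 21.8.

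**Figure D3:**
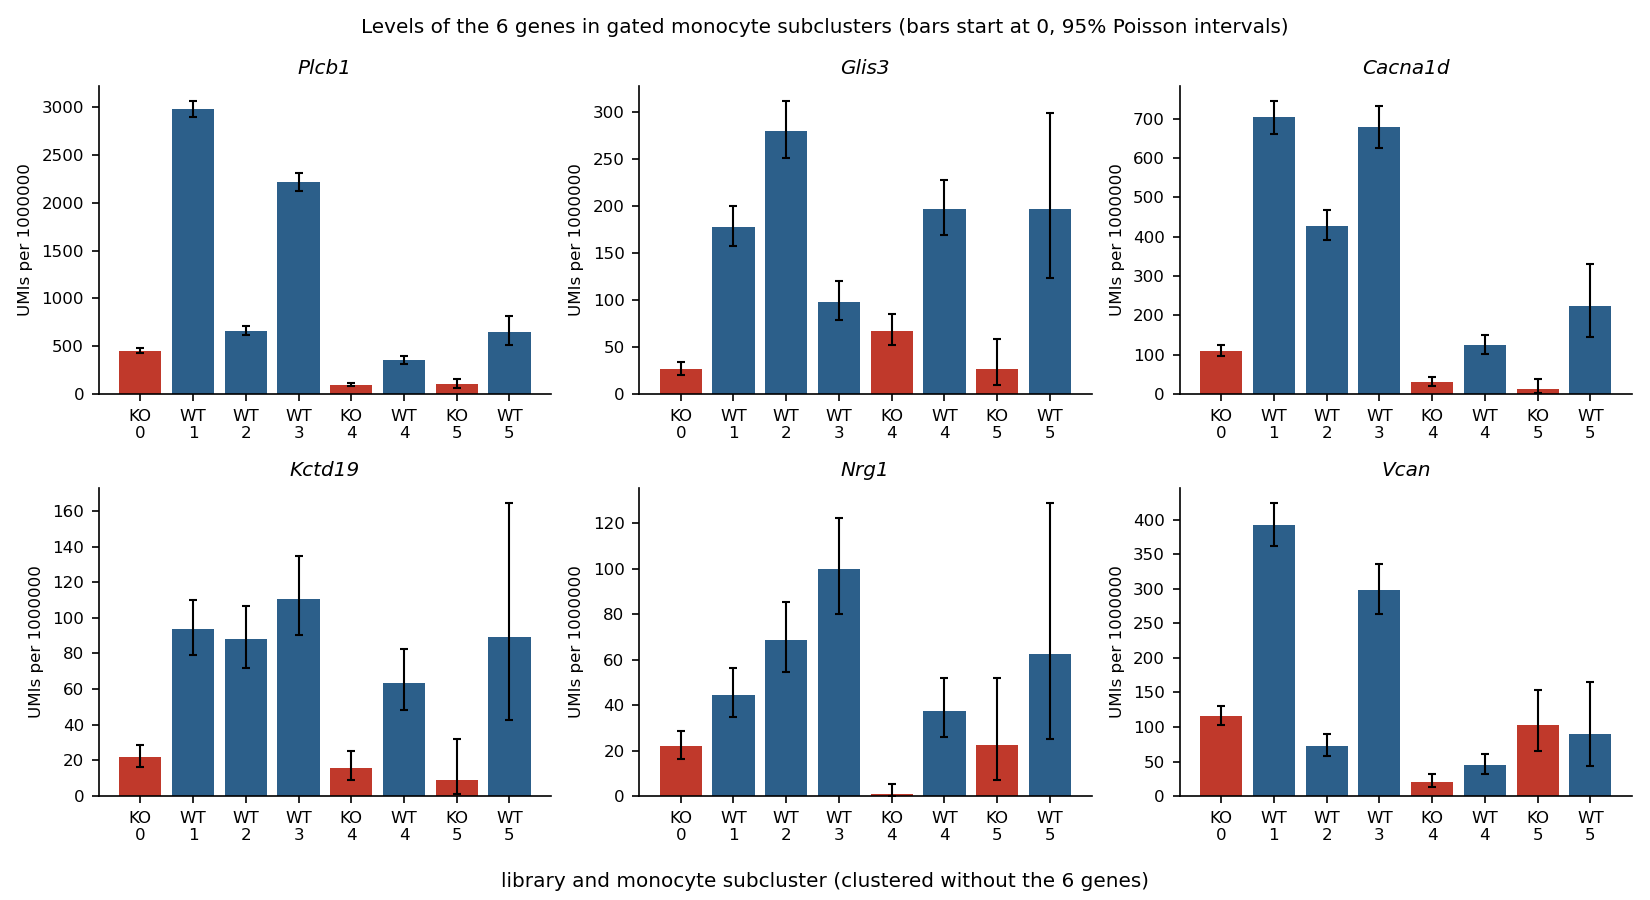
Levels of the 6 genes (y axes, UMIs per 1000000, bars from 0) in subclusters of gated monocytes that were built without them (x axes, library and subcluster), with KO bars in red, WT bars in blue and exact 95% Poisson intervals. Of WT subclusters 1, 2 and 3, subcluster 2 is the lowest for Plcb1 and Vcan (661 and 72.9), where Glis3 has its highest WT level of these subclusters (280).

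Cell by cell, Plcb1, Cacna1d and Vcan were found together. Among thinned WT cells, Vcan was found in 39.5% (35.1 to 44.1) of cells with Plcb1 and 9.77% (6.42 to 14.1) of cells without it. Cacna1d was found in 44.8% of cells with Plcb1 and 26.2% of cells without. Glis3 was found in 18.0% of cells with Plcb1 and 20.7% of cells without, in 21.4% of cells with Cacna1d and 17.4% without, in 25% with Kctd19 and 18.0% without, and in 30.2% with Nrg1 and 18.1% without. Nrg1 was found in 8.16% of cells with Plcb1 and 5.47% of cells without, and in 5.14% of cells with Vcan and 8.08% without. The intervals of each of these Glis3 and Nrg1 pairs overlapped. Of the 30 ordered pairs of genes, 24 had a ratio above 1, and for 6 of them, all between Plcb1, Cacna1d and Vcan, the 2 intervals did not overlap. Within subcluster 1 the same held for 2 of 30 pairs, and within subclusters 2, 3 and 4 for none. The pair that stayed apart in subcluster 1 was Plcb1 and Vcan, with Vcan in 50% of 216 cells with Plcb1 and 22.2% of 36 cells without.

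Each gene was also set against how many of the other 5 a cell held. In WT, Vcan was found in 7.63% of cells with none of the others, 30.2% of cells with 1 and 36.9% of cells with 2 or more. Plcb1 was found in 47.6%, 68.1% and 80.0%, and Cacna1d in 21.9%, 37.8% and 46.9%. These 3 genes thus became more frequent as others were present. Glis3 was flat (18.2%, 19.7% and 18.8%), and for Kctd19 (10.4%, 10.5% and 15.4%) and Nrg1 (5.47%, 6.70% and 8.06%) the intervals overlapped. In KO, Plcb1 was found in 26.0%, 34.6% and 55.6% of cells, the last of which are 5 of only 9, and Vcan in 7.79%, 13.6% and 15.4%, while Glis3 was found in 7.39%, 3.03% and 4.76%.

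**Figure D4:**
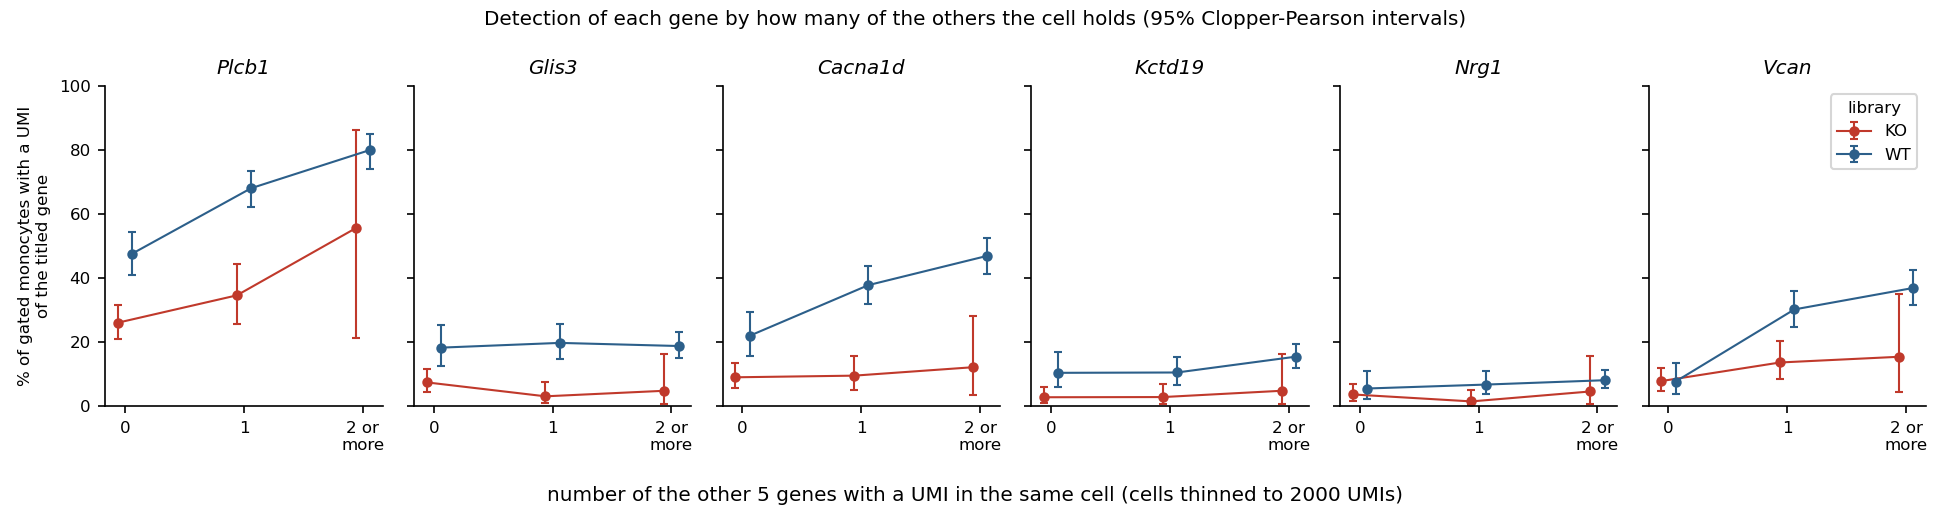
Share of thinned gated monocytes with a UMI of each gene (y axis, percent) by how many of the other 5 genes the cell held (x axis), with KO and WT as separate lines and exact 95% intervals. In WT the lines of Plcb1, Cacna1d and Vcan climb (Vcan through 7.63%, 30.2% and 36.9%), and that of Glis3 stays between 18.2% and 19.7%.

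What else the cells with many of these genes express was read from the 181 WT cells with at least 3 of them against the 553 with fewer. The 181 cells came from subcluster 1 in 94 cases (37.3% of its thinned cells), from subcluster 3 in 58 (33.9%), from subcluster 2 in 21 (10.3%), from subcluster 4 in 4 (5.48%) and from subcluster 5 in 4 (22.2%). In KO such cells numbered 5 of 281 in subcluster 0, none of 79 in subcluster 4 and 1 of 22 in subcluster 5 (4.55%). Depth was similar, with medians of 5584 UMIs in the 181 cells and 6006 in the 553, as was the mitochondrial share (1.62% and 1.58%). Summed levels were 8771 and 6352 for 12 classical monocyte markers, 45.6 and 261 for dendritic markers, 187 and 140 for T cell markers, 671 and 715 for neutrophil markers, and 56.1 and 61.5 for fibroblast markers.

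Few other genes were much higher in these cells, and more were lower. Of 5377 genes compared, the 6 themselves left out, 3 (0.0558%) had at least 2-fold more transcripts and 82 (1.53%) had at least 2-fold fewer, on a log2 scale that adds 10 per 1000000 to each level and so understates the differences of low genes. The highest ratios were those of Themis, a T cell signalling gene (53.2 in the 181 cells, 16.1 in the others, log2 ratio 1.27), the unnamed model Gm13986 (164 and 67.9, 1.16) and F13a1, which codes for the A subunit of clotting factor XIII (319 and 151, 1.04). Themis rests on 56 and 63 UMIs. Its log2 ratio fell to 0.31 when WT cells with at least 2 genes were set against those with fewer, and it ran the other way in KO, as given below. Log2 ratios of 0.88 to 0.93, just under 2-fold on that scale, were found for the endothelin receptor gene Ednrb (39.9 and 16.1), the vitamin C transporter gene Slc23a2 (300 and 155), Cd177 (41.8 and 17.7) and Chil3 (555 and 297). The protease inhibitor gene Slpi stood at 2417 and 1357, and Fn1 at 528 and 296.

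Among the 10 genes with the lowest ratios, Cadm1 stood at 4.75 in the 181 cells and 89.1 in the others, Ly75, which codes for the endocytic receptor DEC-205, at 7.60 and 55.6, Zfp366 at 3.80 and 47.4, and the lymph node homing receptor gene Ccr7 at 15.2 and 95.8. S100a8, abundant in neutrophils, stood at 11.4 and 155, and the macrophage elastase gene Mmp12 at 24.7 and 162. MHC class II genes were lower as well, with H2-Aa at 950 and 2785, H2-Ab1 at 590 and 1743, and the invariant chain gene Cd74 at 1923 and 4875.

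These differences were smaller within cleaner sets of cells. Without the neutrophil-marker and dendritic-marker cells, none reached 2-fold upwards and 14 did so downwards. Within WT subclusters 1, 2 and 3 alone, where 173 cells held at least 3 of the genes and 454 fewer, none of 4468 genes (0%) reached 2-fold upwards and 15 (0.336%) did so downwards. The 15 genes with the highest ratios over all WT cells had log2 ratios with a median of 0.62 there, from 0.38 for Slpi to 0.84 for Ednrb. They were chosen from mostly the same cells, so nothing is read from their all lying above 0. The log2 ratio of Themis was 0.49 there, with 20.4 in cells with at least 3 genes and 11.6 in the others. The 10 genes with the lowest ratios were closer to 0, with a median of -0.37, such as -0.07 for Ly75, -0.04 for Zfp366 and -0.20 for S100a8, while Mmp12 (-1.30) and Ccr7 (-1.21) were still lower.

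In KO only 6 cells reached 3 genes, so 46 cells with at least 2 were set against 358 with fewer. The 2 sets were less alike than in WT, with medians of 7003 and 8902.5 UMIs. Xist but no Y-linked UMI was found in 41.3% of the 46 cells and 29.6% of the 358. Of 4897 genes, 42 (0.858%) reached 2-fold upwards and 192 (3.92%) did so downwards. F13a1 stood at 480 in the 46 cells and 215 in the others, Chil3 at 628 and 226, and Slpi at 1743 and 548. Of the 15 genes highest in WT, 11 had enough UMIs in KO, and of these 9 were above 0 and Slc39a14 (-0.55) and Fgd4 (-0.28) were below. The share of all 4897 genes above 0 was not counted, and their median log2 ratio was -0.06. Among those of the 15 with too few UMIs, Themis (2.74 in the 46 cells, 18.2 in the others, -1.14), Dmkn (-0.27) and Ednrb (-0.24) were below 0 and Cd177 (0.19) was above. The summed classical monocyte markers stood at 8728 and 5552 in the 2 sets of KO cells, and the dendritic markers at 57.5 and 212.

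**Figure D5:**
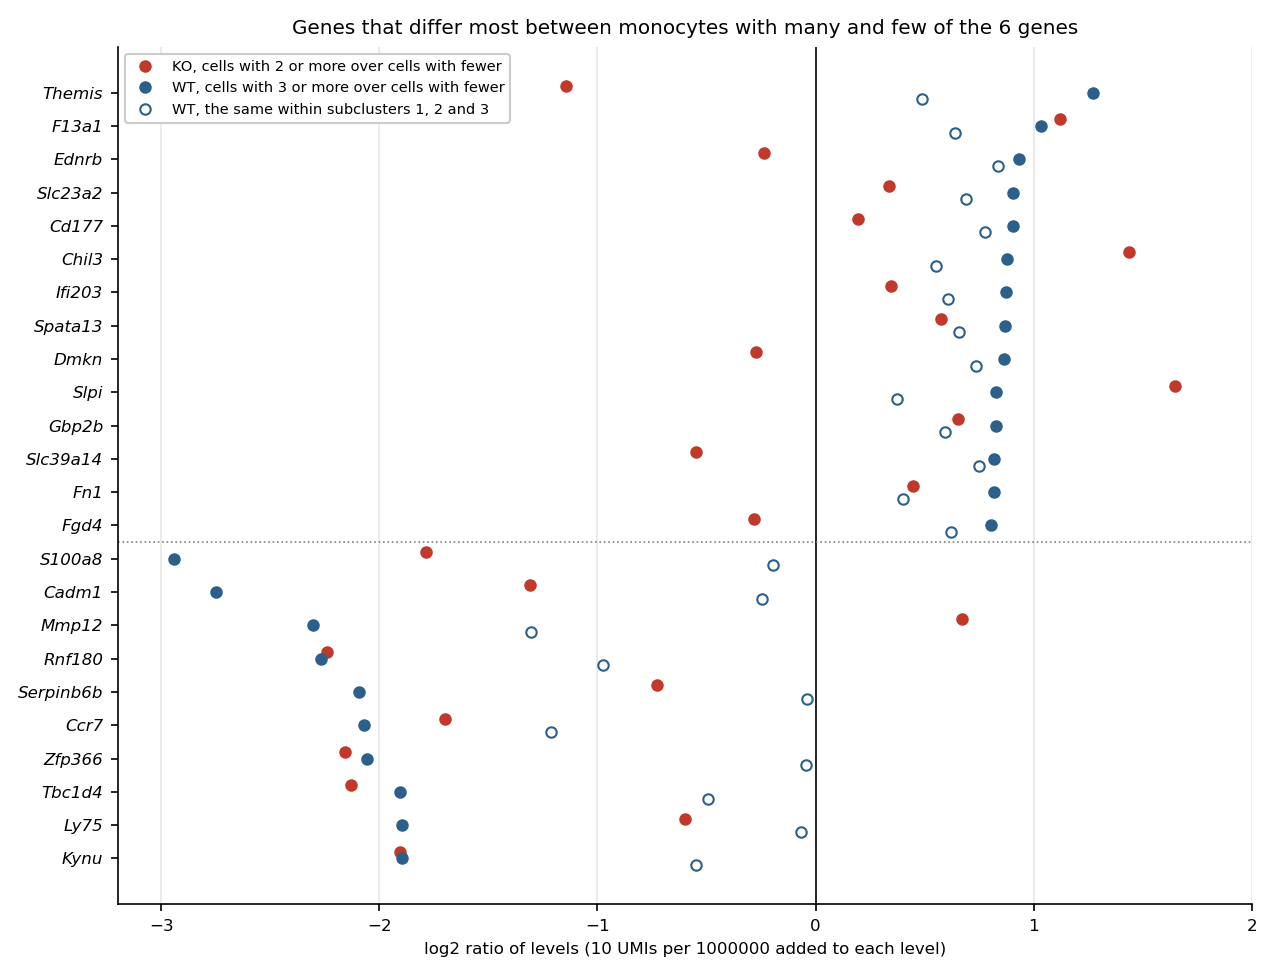
Log2 ratios (x axis, 10 per 1000000 added to each level) of the named genes at the top and at the bottom of the comparison between WT gated monocytes with at least 3 of the 6 genes and those with fewer. Filled red points are KO cells with at least 2 genes over those with fewer, filled blue points are WT, and open points are WT within subclusters 1, 2 and 3. There the upper genes, chosen from mostly the same cells, have ratios of 0.38 to 0.84.

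Lists of genes gave the same picture at 1.5-fold, a level passed upwards by 1.97% and downwards by 5.75% of the 5377 genes in WT. Of 12 classical monocyte genes, 6 were higher in WT cells with at least 3 of the group (Chil3, Fn1, F13a1, Cd177 and Mgst1 among them) and none was lower, with a median log2 ratio of 0.65 against -0.04 over all genes. Within subclusters 1, 2 and 3, where 0.828% of genes were higher and 2.1% lower, 2 of the 12 were higher (F13a1 and Cd177), with a median of 0.32. In KO, where 5.64% were higher and 12.6% lower, 7 of 11 were higher, Ly6c2 and Hp among them, with a median of 0.76. The MHC class II and dendritic transition genes went the other way in each split, with 7 of 7 lower in WT (median -1.54), 6 of 6 within the 3 subclusters (median -1.18) and 6 of 6 in KO (median -1.83).

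Activated monocyte genes were mixed. Of 17 compared in WT, the chemokine genes Ccl2, Cxcl2 and Cxcl3 and the thrombospondin gene Thbs1 were higher and the arginine transporter gene Slc7a2 was lower, with a median of 0.24. Within subclusters 1, 2 and 3 none was higher and 4 were lower (Spp1, Il1a, Slc7a2 and Il1rn), with a median of 0.00. Type I interferon genes numbered 2 of 10 higher in WT cells with at least 3 of the group, and none of 8 within the 3 subclusters.

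The partners of the 6 genes in their own pathways were set side by side in gated cells of both libraries, where 4.91% of the 7020 genes were at least 1.5-fold higher in KO and 3.8% lower. Of 20 phosphoinositide signalling genes besides Plcb1, 11 could be compared. Only Rgs1, a brake on G protein signalling, passed 1.5-fold (271 in KO, 475 in WT), and the median log2 ratio was -0.01. Gnaq, the Gq subunit that switches on phospholipase C beta, stood at 1322 in KO and 1384 in WT, Plcg2 at 167 and 152, and the IP3 receptor gene Itpr1 at 136 and 137. The other members of the enzyme family were scarce, with Plcb2 at 5.40 and 8.85, Plcb3 at 2.83 and 3.22, and Plcb4 at 14.4 and 4.83.

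Of 17 voltage-gated calcium channel genes besides Cacna1d, only the beta subunit gene Cacnb4 could be compared, at 37.5 in KO and 61.5 in WT. Of 12 hedgehog, GLI and GLIS genes, 2 could be compared, the hedgehog receptor gene Ptch1 (97.2 in KO, 39.2 in WT) and Sufu (24.7 and 15.1), and Ptch1 was thus higher in KO while Glis3 was lower. Of 16 neuregulin, EGF-family and ErbB genes, 5 could be compared and none passed 1.5-fold in either direction. The neuregulin receptors were at the edge of detection, with Erbb3 at 2.06 in KO and 0.60 in WT and Erbb4 at 0 and 0.40. None of 5 KCTD genes passed either way. Of 22 versican and hyaluronan genes, 3 could be compared, with the hyaluronan receptor gene Cd44 at 2835 in KO and 2916 in WT, the hyaluronan-binding protein gene Tnfaip6 at 11.1 and 42.6, and the scavenger receptor gene Stab1 at 30.9 and 12.5.

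Across 32 units (cell classes and gated subclusters in each library), the genes whose log2 level followed the summed group most closely were Zfyve9 and Plod3 (Pearson r 0.905 each), Gab1 (0.904), and Cdc42ep4 and Ednrb (0.862 each). These units share 2 libraries and their depths, so the values are descriptions. Over the 28 units other than fibroblasts and endothelial cells they were Nupr1 (0.935), Gab1 (0.904), Fn1 (0.892), Mgst1 (0.891) and Inhba (0.890). Taken alone, Kctd19 followed the myeloid genes Klra2 (0.916), Csf2ra (0.911) and Inhba (0.908) over the 32 units, and Glis3 followed no gene as closely, with Rnf217 first (0.786). Within the group, r was 0.957 between Plcb1 and Vcan and 0.469 between Plcb1 and Kctd19 over the 32 units, and the second was 0.829 over the 28. Over the 8 gated units alone it was 0.960 between Plcb1 and Cacna1d, 0.856 between Plcb1 and Kctd19, and 0.824 between Plcb1 and Vcan. Between Plcb1 and Glis3 it was 0.506, and between Vcan and Glis3 0.0387. Each of these sets of units mixes KO and WT subclusters, and the genes were chosen for lower levels in KO monocytes. That choice alone can raise r between them, so no shared state is read from the r within the group.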

How the data were processed

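Sorted intestinal cells of 1 KO and 1 WT library were analysed. The authors deposited raw UMI counts for each gene in each barcode. Cell Ranger 7.0.0 had produced them per the file headers, and the genome build was GRCm38 per the submitters' processing notes. Neither the release of the annotation nor the handling of intronic reads was stated in the labels or file headers. With intronic reads, long genes gain counts. Cells under 200 genes or 500 UMIs (34 in KO, 5 in WT) or over 20% mitochondrial UMIs (79 and 57) were left out, as were Scrublet doublets (scanpy 1.11.5, run per library), which were 482 of 8681 KO cells (5.55%) and 666 of 10896 WT cells (6.11%). The kept cells had medians of 4101 UMIs in KO and 4540.5 in WT.

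Cells of the 2 libraries were clustered jointly and with no batch correction, on 2000 variable genes, 30 principal components and 20 neighbours, by the Leiden method (leidenalg 0.10.2) at resolution 1. A cluster was named from at least 3 listed markers, and names rebuilt in this way can differ from the study's own. Gated monocytes were clustered again without the 6 genes on 20 components at resolution 0.6. Levels were compared as log2 ratios with 10 per 1000000 added, for genes with at least 100 UMIs over both sets of cells and a UMI in 5% of either. Correlations across units used the log2 of the level plus 10. The 6 genes and the gene lists were chosen with earlier results of these data known. Genes named beside them are the 15 highest and 10 lowest in the WT split (gene segments and unnamed models left out), the 5 most alike across units, and list members that bear on a statement. A gene of the WT split is not reported here. Genes at ranks between the 6 were added after their values were seen. Scipy 1.17.1 gave the intervals. Alternatives changed the gate, the doublet filter, the thinning depth, the number of genes a cell had to hold, the genes counted, the fold and the clustering.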

Additional observations from a re-analysis of the deposited data

Results flagged for a closer look

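Glis3 differed in direction between cell classes. In natural killer cells its level was 3.91 times as high in KO as in WT (32.9 per 1000000 in 238 KO cells, 8.42 in 297 WT cells, interval of the ratio 2.02 to 8.18), against a ratio of 0.207 in gated monocytes. The gene was found in 5.46% (2.94 to 9.16) of KO and 2.36% (0.953 to 4.80) of WT natural killer cells, shares whose intervals overlap. A KO cell held at most 12 UMIs and a WT cell 4, and the interval of the ratio does not cover such spread between cells. The difference between the classes was not tested.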

How the results depend on the processing

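The log2 ratio of the summed group, KO over WT, was -2.22 and stayed below 0 under all 20 alternatives, between -2.34 (without Vcan) and -1.69 (cells with 2 or more Ly6c2 and Chil3 UMIs, chosen after seeing the data). This contrast chose the genes and the alternatives share most of their cells, so nothing is read from the sign. It was -2.14 with at least 10 Lyz2 UMIs, -2.12 with no C1q UMI or with doublets kept, -2.09 in Xist-only cells, -2.06 without Plcb1, -2.15 without Cacna1d and -2.03 with subclusters weighted alike. The share of cells with at least 3 genes depended on depth and on the genes counted: in KO it was 1.49%, and 0% when thinned to 1000 UMIs, 6.68% at 4000 UMIs, 4.24% with at least 10 Lyz2 UMIs, 0.495% without Plcb1 or without Cacna1d, 11.4% for at least 2 genes and 0.248% for at least 4. In WT it was 24.7%, and 12.6% at 1000 UMIs, 40.6% at 4000 UMIs, 29.9% with at least 10 Lyz2 UMIs, 28.3% without neutrophil-marker and dendritic-marker cells, 7.08% without Plcb1, 19.5% without Glis3, 9.95% without Cacna1d, 19.9% without Kctd19, 13.1% without Vcan, 56.0% for at least 2 genes and 5.86% for at least 4. KO was below WT in each, from which nothing is read either. Genes at least 2-fold higher in WT cells with at least 3 of the group numbered 3, and 18 for at least 2 genes or without Plcb1, 15 without Cacna1d, 5 without Glis3, 7 with doublets kept, 106 at 1.5-fold, and 0 without neutrophil-marker and dendritic-marker cells or in subclusters 1, 2 and 3 (the last chosen after seeing the data). Genes at least 2-fold lower numbered 82, and 147 without Plcb1, 130 without Cacna1d, 309 at 1.5-fold, 14 on thinned counts or without neutrophil-marker and dendritic-marker cells, and 15 in subclusters 1, 2 and 3. The highest over the lowest summed WT subcluster was 5.36, 8.51 at resolution 1 and 9.57 with each library clustered alone. The cause of these shifts was not tested. No paired analysis was possible because each genotype has 1 library, and Nrg1 and Kctd19 rest on fewer than 100 KO UMIs.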

Other observations

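Each library was also clustered alone, again without the 6 genes. Among WT cells alone, Plcb1 stood at 2947 and Glis3 at 172 per 1000000 in a subcluster of 262 cells, Plcb1 at 702 and Glis3 at 288 in one of 229 cells, Plcb1 at 2068 and Glis3 at 85.0 in one of 179 cells, and Plcb1 at 145 and Glis3 at 152 in one of 74 cells. The subcluster with the highest Plcb1 level was thus not the one with the highest Glis3 level. Among KO cells alone, Plcb1 stood at 565 and Glis3 at 26.3 in a subcluster of 150 cells, Plcb1 at 377 and Glis3 at 40.6 in one of 138 cells, and Plcb1 at 51.5 and Glis3 at 45.4 in one of 117 cells.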
